A study of Mus musculus with 4 samples.

Results

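The receptors for serotonin, dopamine, noradrenaline, histamine and acetylcholine were examined in RNA bound to ribosomes of Npy-Cre cells of the mouse amygdala. They were taken as all genes whose symbol begins with Htr, Drd, Chrm or Hrh plus a digit, with Adra1, Adra2 or Adrb plus a digit, or with Chrna, Chrnb, Chrnd, Chrne or Chrng, leaving out Htr3a. This gave 52 genes of 22760 gene symbols kept, in 6 families: 13 serotonin, 5 dopamine, 9 noradrenaline, 4 histamine, 5 muscarinic and 16 nicotinic receptor genes. All 52 were listed once in the deposited tables.

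The series held 2 immunoprecipitated (IP) and 2 input RNA-seq libraries of the amygdala, both sides, all from mice of genotype NpyCre/+;TRAPlox/lox. The IP libraries came from translating ribosome affinity purification (TRAP), which pulls down tagged ribosomes of the cells in which Cre acted, and the input libraries came from the total RNA of the same tissue. Each library pooled RNA of 3 mice. No age, sex or treatment was given for these mice, and no library from mice without Cre was analysed here, so RNA that binds the beads without a tag was not measured. Cre driven from Npy also marks cells that expressed Npy only earlier in life, and every mouse, input libraries included, carried the same alleles. The source description of the second IP library calls it replicate 1, while its title calls it the second; the title was followed.

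Levels were FPKM (read fragments scaled to transcript length and to the library's mapped reads), the unit of the deposited tables. They summed to 423985 and 419349 FPKM in the IP libraries and to 334759 and 335119 FPKM in the input libraries. The number of reads behind them was not given, so depth could not be stated. Npy stood at 1240.4 and 1167 FPKM in the IP libraries, against 105 and 99.2 FPKM in the input libraries, a log2 change of 3.54 (limma adjusted p = 1.81e-06). Gad1, which makes GABA, was 4.79-fold higher in IP, and Slc17a7, the vesicular glutamate transporter of cortical-type excitatory neurons, remained at 173 and 118 FPKM in IP against 286 and 302 FPKM in input. Of the GABAergic markers 12 of 12 were higher in IP, and of the astrocyte, oligodendrocyte, microglial and vascular markers tested 9 of 10, 10 of 10, 9 of 9 and 7 of 7 were lower. Of the 10 microglial and 11 vascular markers listed, 6 each were below 0.5 FPKM in both IP libraries. Any of these that were tested had reached the expression filter through the input libraries alone. In such bulk samples, fewer cells of a type and less RNA per cell cannot be told apart.

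These transmitters reach the amygdala mainly through long axons of small cell groups in the brainstem, hypothalamus and basal forebrain, and they set the excitability of its neurons during arousal, fear and feeding. All of the receptors except the nicotinic ones and the Htr3 channels are coupled to G proteins: Gs raises cyclic AMP, Gi/o lowers it and opens potassium channels, and Gq releases calcium from stores. Nicotinic receptors are ion channels assembled from several subunits and opened directly by acetylcholine.

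Of the 52 receptor genes, 26 reached 1 FPKM in at least 2 libraries and were tested. Htr6 and Chrm2 had the lowest means over the 4 libraries, and Hrh3 was the highest in each of the 4 libraries. The test was limma on log2(FPKM + 1) over all 12418 genes that passed the same filter, 2-sided, with Benjamini-Hochberg adjustment at 0.05; changes are given as IP minus input on that log2 scale, which understates the change of low genes. Fold values are ratios of mean FPKM.

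**Figure D1:**
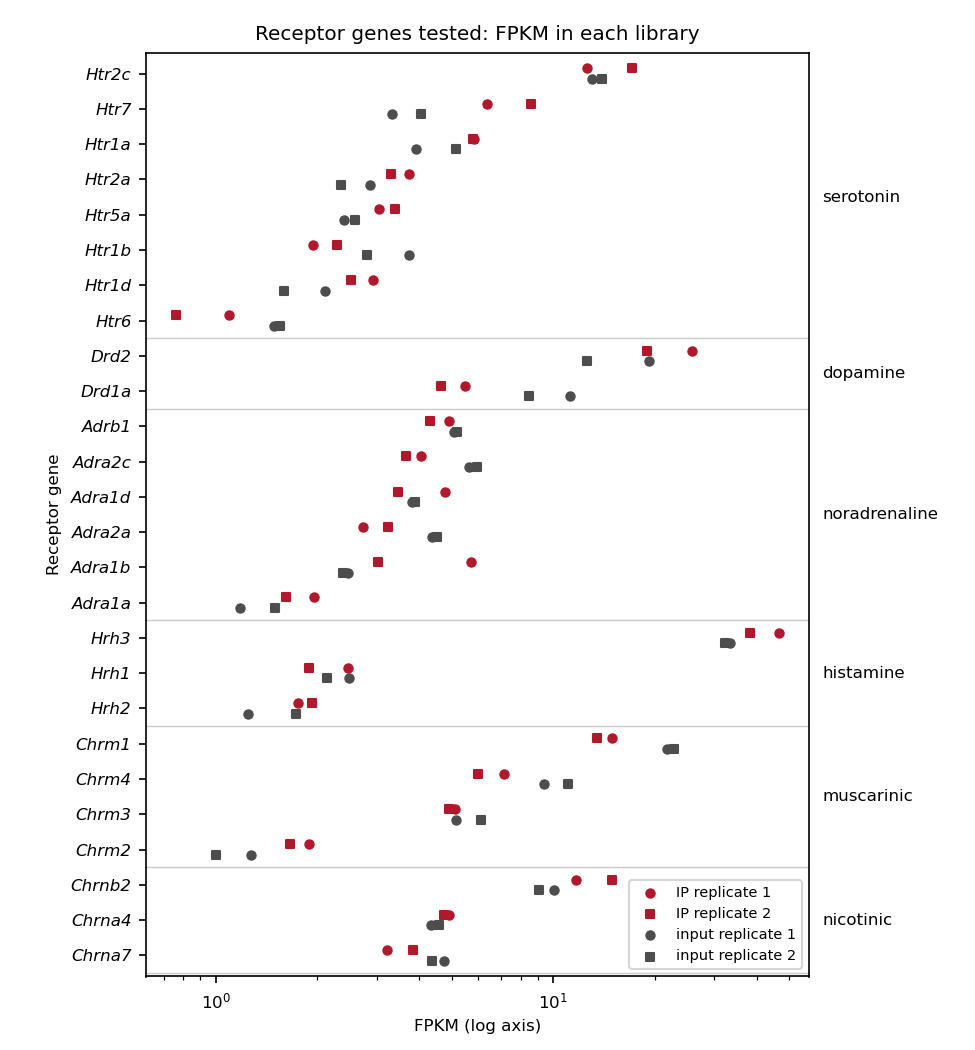
FPKM of each of the 26 tested receptor genes (log axis) in the 2 IP libraries (red) and the 2 input libraries (grey), grouped by transmitter. Hrh3 is the highest gene, and the IP points lie clear of the input points for 22 of the 26 genes, to the right for 12 and to the left for 10. Across all genes tested, the groups do not overlap in 86.4%.

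By this test 7 receptor genes were higher in IP, 8 were lower and 11 did not pass. Across all genes 70.9% were called, 37.0% higher and 33.9% lower, so being called was no more frequent among the receptors, at 15 of 26, than in the background. With the replicate as a block, since IP and input of a number came from the same pooled mice, 10 were higher and 8 lower, Htr1a, Drd2 and Adra1b being added, and 73.4% of all genes were called. The higher ones were Htr7, Htr1d, Htr2a, Htr5a, Hrh3, Chrm2 and Chrnb2, and the lower ones were Drd1a, Chrm1, Chrm4, Adra2c, Adra2a, Htr1b, Htr6 and Chrna7. Both IP values lay above both input values in 12 receptor genes (45.0% of all genes) and below them in 10 (41.4% of all genes), and the groups overlapped in 4; across all genes 86.4% did not overlap.

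The changes were small. With FPKM as deposited, no receptor gene moved by 1 or more on the log2 scale, while 11.5% of all genes did. The receptors ran from -0.83 (Drd1a) to 0.84 (Htr7), with a median of 0.11 beside 0.03 over all genes and a median absolute change of 0.37 beside 0.40. The 95% confidence limits deposited with each value lay apart between the groups for 8 of the 26, against 57.2% of all genes. Those limits reached a median of 11.2% and 13.4% of the value to either side in the IP libraries and of 12.5% and 11.9% in the input libraries, over the 26 genes. P-values and standard errors rest on 2 pools per group; an exact permutation test of a single gene could not go below p = 0.333 here. Exons of 7 tested receptor genes overlap a gene on the opposite strand; for Adra1d, Hrh2, Hrh3 and Chrm1 that gene has no value here, and the other 3 are described with their partners.

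**Figure D2:**
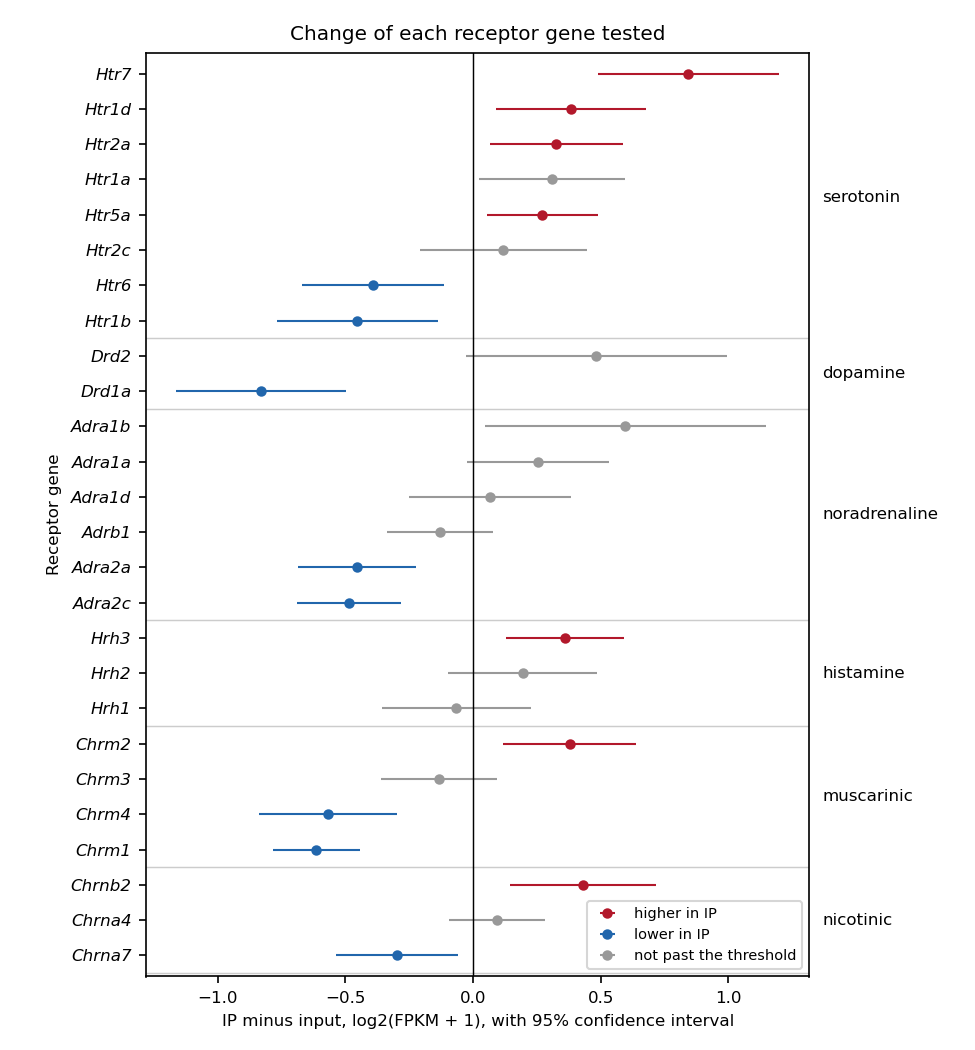
Change of each tested receptor gene (IP minus input, log2(FPKM + 1)) with its 95% confidence interval from limma, grouped by transmitter. Red genes were higher in IP, blue genes lower, and grey genes did not pass the adjusted threshold; every family except dopamine and noradrenaline holds a higher gene, and every family except histamine a lower one.

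Several of these calls depended on how libraries were scaled to each other. Dividing each library by its own FPKM sum shifted the median of all genes to -0.29. A gene at 0 with equal sums thus lay above that median. This scaling left 1 receptor gene higher and 10 lower, with 71.8% of all genes called, 17.9% higher and 53.8% lower. Quantile normalization left the median of all genes at 0.05 and gave 12 receptor genes higher and 4 lower, with 65.5% of all genes called, 35.3% higher and 30.2% lower. The median receptor change was -0.21 under equal sums and 0.33 under quantile normalization. Htr7, Drd1a, Adra2c, Chrm1 and Chrm4 were called in the same direction under all 3 scalings. Htr7 changed by 0.62 with equal sums (limma adjusted p = 0.0155) and by 1.06 after quantile normalization (limma adjusted p = 0.00129), above the all-gene median in both. Drd1a stood at -1.22 and -0.71, Chrm1 at -0.97 and -0.74, Chrm4 at -0.94 and -0.48, and Adra2c at -0.86 and -0.26 in the same order, with Adra2c the weakest after quantile normalization (limma adjusted p = 0.0326).

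**Figure D3:**
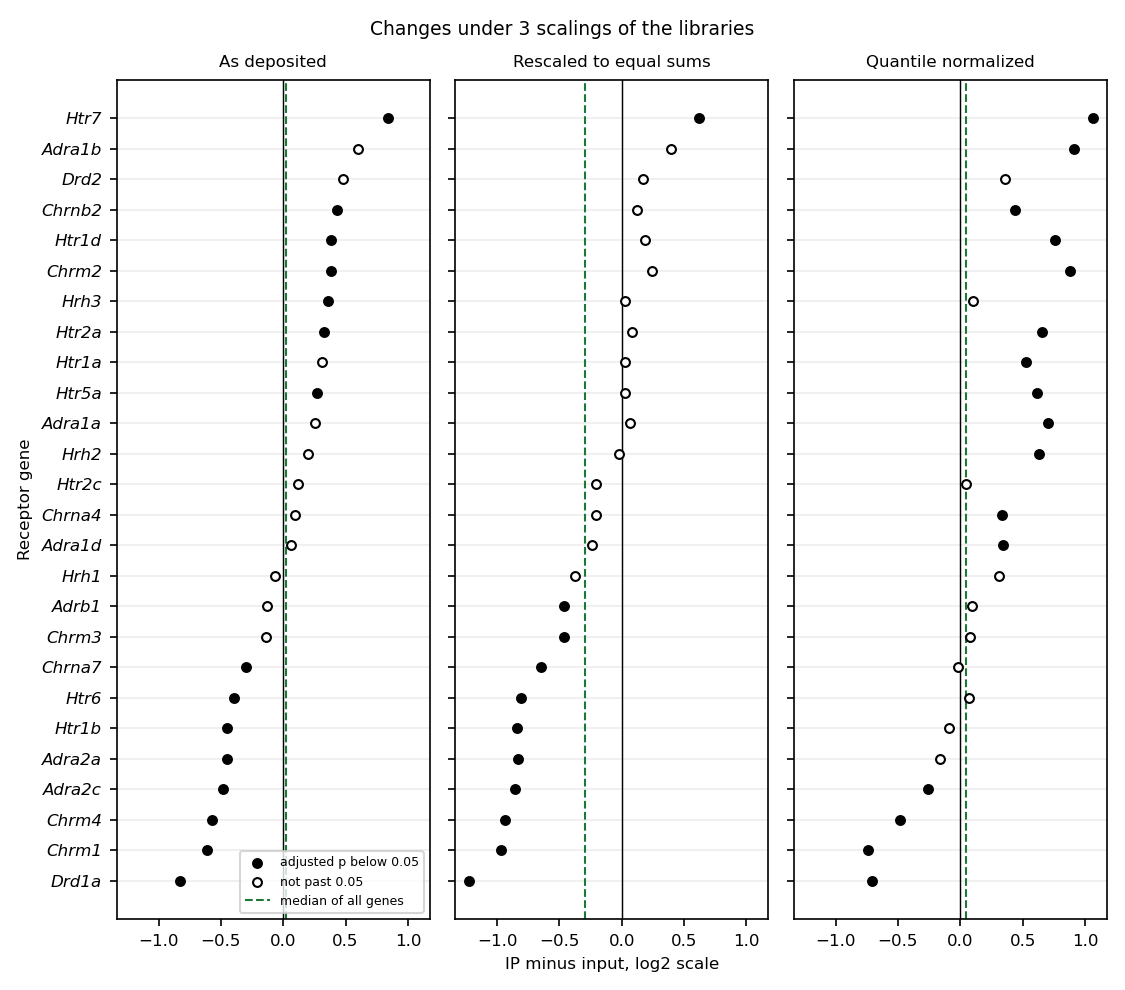
Change of the 26 receptor genes (IP minus input, log2 scale) with FPKM as deposited, rescaled to equal library sums, and quantile normalized. Filled points passed the adjusted threshold and the dashed line is the median of all genes. Htr7 stays right of 0 and Drd1a, Chrm1, Chrm4 and Adra2c stay left of it in every panel. With equal sums Hrh3 and Chrnb2 lie near 0, right of the all-gene median of -0.29.

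Since these genes kept their direction, the 250 bases before the RefSeq start of each of the 4 with an entry are shown (GRCm38.p6; Chrm1 is named only). The windows are chr19:36057361-36057610 on the minus strand for Htr7, chr13:54055659-54055908 on the minus strand for Drd1a, chr5:35278316-35278565 on the plus strand for Adra2c and chr2:91921939-91922188 on the plus strand for Chrm4. Each is written 5′ to 3′ along the gene, with the GC box GGGCGG, searched on both strands, in capitals.
Htr7: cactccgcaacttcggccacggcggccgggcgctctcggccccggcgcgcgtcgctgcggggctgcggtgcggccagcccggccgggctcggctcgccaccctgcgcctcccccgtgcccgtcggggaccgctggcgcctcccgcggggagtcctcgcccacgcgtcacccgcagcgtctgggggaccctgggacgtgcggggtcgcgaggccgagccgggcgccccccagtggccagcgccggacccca
Drd1a: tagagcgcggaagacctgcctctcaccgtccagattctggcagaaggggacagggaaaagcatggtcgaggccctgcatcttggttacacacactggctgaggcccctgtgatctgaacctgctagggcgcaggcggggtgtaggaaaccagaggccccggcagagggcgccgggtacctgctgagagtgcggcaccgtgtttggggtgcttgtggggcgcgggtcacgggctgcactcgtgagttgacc
Adra2c: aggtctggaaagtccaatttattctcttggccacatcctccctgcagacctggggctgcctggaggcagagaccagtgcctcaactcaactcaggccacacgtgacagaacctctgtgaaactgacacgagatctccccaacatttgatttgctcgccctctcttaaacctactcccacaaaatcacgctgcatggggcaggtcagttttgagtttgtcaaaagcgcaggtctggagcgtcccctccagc
Chrm4: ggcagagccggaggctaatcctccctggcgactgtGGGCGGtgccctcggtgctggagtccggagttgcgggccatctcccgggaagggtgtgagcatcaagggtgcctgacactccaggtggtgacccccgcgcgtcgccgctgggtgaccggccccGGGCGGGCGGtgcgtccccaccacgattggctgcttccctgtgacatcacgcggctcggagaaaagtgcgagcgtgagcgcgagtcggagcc
The Chrm4 window holds 3 GC boxes, a pair of which overlap, and the other windows hold none; 32.7% of all 32851 windows of this length hold at least 1. The TATA box TATAAA, searched on both strands, is in none of the 4 and in 12.4% of all windows. Their GC content is 82.0% for Htr7, 70.0% for Chrm4, 64.0% for Drd1a and 53.6% for Adra2c, beside a median of 52.4% over all windows. The 3 windows of genes lower in IP share neither motif.

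Of 8 serotonin receptors tested, 4 were higher in IP, 2 were lower and 2 did not pass, beside 70.9% called among all genes. Htr7, a Gs-coupled receptor at chr19:35958729-36057360, was at 6.35 and 8.56 FPKM in the IP libraries, against 3.32 and 4.06 FPKM in the input libraries. Both IP values exceeded both input values, and the change of 0.84 (SE 0.15, 95% CI 0.49 to 1.20, limma adjusted p = 0.00251), 2.02-fold, was more positive than that of 93.8% of all genes. Leaving out any single library, it stayed past the threshold. Among the inhibitory Gi/o-coupled receptors, Htr1d had 2.93 and 2.51 FPKM in IP and 2.11 and 1.60 FPKM in input (1.47-fold, limma adjusted p = 0.0276). Htr5a, also Gi/o-coupled, had 3.05 and 3.39 FPKM in IP and 2.40 and 2.59 FPKM in input (1.29-fold, limma adjusted p = 0.0334). In neither did the groups overlap, and both were higher.

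Htr2a, the Gq-coupled receptor at which psychedelic drugs act, was at 3.72 and 3.31 FPKM in IP and 2.86 and 2.35 FPKM in input, also without overlap (1.35-fold higher, limma adjusted p = 0.0318). Htr1b, the inhibitory autoreceptor and heteroreceptor of nerve terminals, was lower, with 1.94 and 2.28 FPKM in IP and 3.74 and 2.81 FPKM in input (a change of -0.45, limma adjusted p = 0.0199). Its exons overlap D430036J16Rik on the opposite strand, which was at 1.42 and 1.16 FPKM in IP and 2.76 and 2.39 FPKM in input. Strandedness was not given, so reads of the pair in the shared stretch cannot be told apart, and its length was not measured. Htr6, a Gs-coupled receptor of the forebrain, was also lower, with 1.10 and 0.764 FPKM in IP and 1.49 and 1.55 FPKM in input (a change of -0.39, limma adjusted p = 0.0214). The Htr7 to Htr6 ratio within a library, a pair picked after the values were seen, was 5.80 and 11.2 in IP and 2.23 and 2.61 in input.

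A pair of abundant serotonin receptors did not pass. Htr1a, the Gi/o-coupled receptor found on many forebrain neurons, was at 5.84 and 5.80 FPKM in IP and 3.92 and 5.15 FPKM in input. Both IP libraries were above both inputs, yet the change of 0.31 missed the threshold (limma adjusted p = 0.0529). It passed with the replicate as a block (limma adjusted p = 0.0234) and, at 0.53, after quantile normalization (limma adjusted p = 0.0122). With equal sums the change was 0.03 (limma adjusted p = 0.856). It was 0.15 without input replicate 1 and 0.47 without input replicate 2. Htr2c, a Gq-coupled receptor, was the most abundant of the family at 12.6 and 17.1 FPKM in IP and 13.0 and 13.9 FPKM in input. Its groups overlapped, with a change of 0.12 (95% CI -0.21 to 0.44, limma adjusted p = 0.46); without IP replicate 1 the change was 0.32 (limma adjusted p = 0.0164) and without IP replicate 2 it was -0.09. Htr2c is strongly expressed in choroid plexus, whose marker Ttr was at 10.4 and 1.31 FPKM in IP and 172 and 9.66 FPKM in input; the summed choroid and ependymal list was at 15.2 and 6.15 FPKM in IP and 190.5 and 18.4 FPKM in input, and its part in the Htr2c values was not tested.

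Apart from Htr7, each serotonin call was lost when some single library was left out, in part with a change as large as before. Fits with 3 libraries also called fewer of all genes, 57.5% to 66.2%. Htr1d lost its call without IP replicate 1 (a change of 0.30, limma adjusted p = 0.117) or input replicate 2 (a change of 0.25, limma adjusted p = 0.144). Htr2a did so without the same libraries (changes of 0.26 and 0.22, limma adjusted p = 0.129 and 0.165), and Htr5a without IP replicate 2, input replicate 1 or input replicate 2 (changes of 0.21, 0.23 and 0.31, limma adjusted p = 0.141, 0.141 and 0.0778). Htr1b lost it without IP replicate 1 (a change of -0.37, limma adjusted p = 0.082) or input replicate 1 (a change of -0.29, limma adjusted p = 0.106), and Htr6 without IP replicate 2, input replicate 1 or input replicate 2 (changes of -0.27, -0.41 and -0.37, limma adjusted p = 0.0946, 0.0811 and 0.0993). With equal sums Htr1d, Htr2a and Htr5a were at 0.19, 0.09 and 0.02 and no longer passed, and after quantile normalization Htr1b stood at -0.09 and Htr6 at 0.07.

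The dopamine receptors showed opposite signs. Drd1a (Drd1), the Gs-coupled receptor of the striatal direct pathway and of intercalated and central amygdala cells, lies at chr13:54051183-54055658. It was at 5.48 and 4.65 FPKM in the IP libraries, against 11.2 and 8.47 FPKM in the input libraries. Both IP values were below both input values, with means of 5.06 ± 0.582 FPKM in IP and 9.83 ± 1.93 FPKM in input (SD, n = 2 each). The change was -0.83 (SE 0.14, 95% CI -1.16 to -0.50, limma adjusted p = 0.00203), 1.94-fold lower in IP, and the call held without any single library. Only 11.4% of all genes had a more negative change or the same.

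Drd2, the Gi/o-coupled counterpart of the indirect pathway, was the second most abundant receptor gene in IP, at 25.7 and 18.97 FPKM in IP and 19.2 and 12.6 FPKM in input. Within each replicate number IP was above input, but the groups overlapped, since IP replicate 2 was below input replicate 1. The change of 0.48 (SE 0.21, 95% CI -0.03 to 1.00) did not pass (limma adjusted p = 0.0812). With the replicate as a block it did (limma adjusted p = 0.000324). The change was 0.69 without IP replicate 2 and 0.77 without input replicate 1. It was 0.27 without IP replicate 1 and 0.20 without input replicate 2. With equal sums it was 0.17 and with quantile normalization 0.36, both short of the threshold. The Drd2 to Drd1a ratio, chosen after the values were seen, was 4.70 and 4.08 in the IP libraries and 1.71 and 1.48 in the input libraries. Drd2 made up 80.6% and 78.1% of the summed dopamine receptor FPKM in IP, against 61.2% and 56.8% in input.

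Markers of striatal-type neurons did not move one way. Of the 12 listed, 3 were higher in IP, 5 lower and 4 did not pass, and their summed level was 533 and 513 FPKM in IP and 689 and 528 FPKM in input. Penk, the enkephalin precursor of indirect-pathway cells, was at 189 and 198 FPKM in IP and 167 and 137 FPKM in input, and passed as higher (limma adjusted p = 0.0161). Ppp1r1b, which encodes a phosphatase inhibitor of dopamine-responsive cells, was at 144 and 127 FPKM in IP and 306 and 233 FPKM in input, and passed as lower. None of the 12 was at 0 in both IP libraries, and the part of such cells in the Drd1a, Drd2 and Chrm4 values was not tested. The other dopamine receptors, Drd3, Drd4 and Drd5, did not reach the filter.

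Among the noradrenaline receptors, 2 of 6 tested were lower in IP, none was higher and 4 did not pass. Of all genes, 33.9% were lower and 37.0% higher. The lower pair were the Gi/o-coupled alpha-2 receptors, which act as autoreceptors of noradrenaline axons and also sit on other neurons. Adra2c, at chr5:35278566-35281763, had 4.05 and 3.66 FPKM in IP and 5.63 and 5.95 FPKM in input (a change of -0.49, SE 0.08, limma adjusted p = 0.00242). Adra2a had 2.73 and 3.25 FPKM in IP and 4.38 and 4.51 FPKM in input (a change of -0.45, limma adjusted p = 0.00564). In both genes every IP value was below every input value, and IP was at 66.6% of input for Adra2c and 67.2% for Adra2a. Adra2c kept its call without any single library, whereas Adra2a lost it without input replicate 2 (-0.44, limma adjusted p = 0.0521) and after quantile normalization (-0.16, limma adjusted p = 0.18).

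The Gq-coupled alpha-1 receptors had positive fitted changes, none of them past the threshold with FPKM as deposited. After quantile normalization all 3 passed as higher: Adra1b at 0.91 (limma adjusted p = 0.00925), Adra1a at 0.71 (limma adjusted p = 0.00387) and Adra1d at 0.34 (limma adjusted p = 0.0448). That scaling called 12 of the 26 receptor genes and 35.3% of all genes higher. All 3 fell short of the threshold with equal sums. Adra1b was at 5.70 and 3.01 FPKM in IP and 2.47 and 2.39 FPKM in input. Both IP values were above both inputs but far from each other, and the change of 0.60 (SE 0.23) gave a limma adjusted p of 0.0527. With the replicate as a block the limma adjusted p was 0.00821. The change was 0.97 without IP replicate 2 but 0.23 without IP replicate 1, and 0.39 with equal sums (limma adjusted p = 0.212). Adra1a was at 1.95 and 1.61 FPKM in IP and 1.18 and 1.49 FPKM in input (0.25, limma adjusted p = 0.0897). Adra1d, with 4.76 and 3.46 FPKM in IP and 3.81 and 3.89 FPKM in input, overlapped (0.06, limma adjusted p = 0.674) and stood at -0.24 with equal sums and -0.12 without IP replicate 1. Adrb1, the Gs-coupled beta receptor of forebrain neurons, was at 4.90 and 4.32 FPKM in IP and 5.09 and 5.17 FPKM in input (-0.13, 95% CI -0.34 to 0.08, limma adjusted p = 0.213). With equal sums Adrb1 was called lower (-0.46, limma adjusted p = 0.00502), beside the all-gene median of -0.29.

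Histamine receptor RNA was almost all Hrh3, the Gi/o-coupled receptor that restrains transmitter release from histamine and other axon terminals. Hrh3, at chr2:180099465-180104407, was at 46.7 and 38.3 FPKM in IP and 33.3 and 32.1 FPKM in input, and made up 91.7% and 91.0% of the family's summed FPKM in IP against 89.9% and 89.3% in input. Both IP values exceeded both inputs, and the gene was 1.30-fold higher in IP (0.36, SE 0.09, limma adjusted p = 0.0142). The call did not hold with equal sums (0.03, limma adjusted p = 0.791), after quantile normalization (0.10, limma adjusted p = 0.342), without input replicate 1 (0.38, limma adjusted p = 0.0854) or without input replicate 2 (0.34, limma adjusted p = 0.114). The last 2 changes were close to the 0.36 with all libraries, and those fits called 57.5% and 57.6% of all genes. Without IP replicate 1 the change was 0.22.

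The other histamine receptors were low and did not pass with FPKM as deposited. Hrh1, the Gq-coupled target of sedating antihistamines, was at 2.46 and 1.89 FPKM in IP and 2.48 and 2.14 FPKM in input, with overlapping groups (-0.07, limma adjusted p = 0.643). Hrh2, which is Gs-coupled, was at 1.75 and 1.92 FPKM in IP and 1.25 and 1.73 FPKM in input (0.19, limma adjusted p = 0.188); after quantile normalization it was called higher (0.63, limma adjusted p = 0.00734). Hrh4, a receptor of blood cells, was listed at 0 in every library.

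The muscarinic receptors included the smallest adjusted p of all receptor genes. Chrm1, the Gq-coupled receptor abundant in cortical and amygdalar projection neurons, lies at chr19:8664005-8683602 and was at 14.9 and 13.5 FPKM in IP and 21.8 and 22.8 FPKM in input. Replicates were close and the groups clear of each other, with means of 14.2 ± 1.01 FPKM in IP and 22.3 ± 0.706 FPKM in input (SD, n = 2 each). The change of -0.61 (SE 0.07, 95% CI -0.78 to -0.44, limma adjusted p = 0.000431) was 1.57-fold lower in IP and held without any single library. Of the markers of glutamatergic neurons, 8 of 11 were lower in IP and none higher, with a summed level of 512 and 372 FPKM in IP and 886 and 910.2 FPKM in input. Their median change was -1.04, and none of the 11 was at 0 in either IP library. The part of these cells in the Chrm1 values was not tested.

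Chrm4, the Gi/o-coupled muscarinic receptor of striatal-type neurons at chr2:91922189-91929829, was also lower, at 7.15 and 5.97 FPKM in IP and 9.37 and 11.1 FPKM in input. No IP value reached an input value (-0.57, SE 0.11, limma adjusted p = 0.00424), although without input replicate 2 the change was -0.46 (limma adjusted p = 0.0512). Chrm2, a Gi/o-coupled receptor found on interneurons and as an autoreceptor on cholinergic terminals, was higher, at 1.89 and 1.66 FPKM in IP and 1.27 and 1.00 FPKM in input (1.56-fold, 0.38, limma adjusted p = 0.0187). It lost the call with equal sums (0.25, limma adjusted p = 0.176), without IP replicate 1 (0.32, limma adjusted p = 0.0841) or without input replicate 2 (0.29, limma adjusted p = 0.0896). Chrm3, Gq-coupled like Chrm1, was at 5.12 and 4.92 FPKM in IP and 5.16 and 6.08 FPKM in input (-0.13, limma adjusted p = 0.238). With equal sums Chrm3 was called lower (-0.47, limma adjusted p = 0.00762).

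Chrm2 and Chrm4, which share the Gi/o pathway, thus had opposite signs: the Chrm2 to Chrm4 ratio was 0.265 and 0.278 in IP and 0.135 and 0.0908 in input, a pair picked after the values were seen. Chrm2 overlaps 9330158H04Rik on the opposite strand, which was at 0.267 and 0.270 FPKM in IP and listed at 0 in both inputs. Its reads in the shared stretch cannot be told apart from those of Chrm2, and the length of that stretch was not measured.

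Of 16 nicotinic subunit genes, only Chrna4, Chrna7 and Chrnb2 reached the filter, the subunits of the main brain receptor types. Chrnb2, the beta subunit that pairs with Chrna4 in the high-affinity receptor, was at 11.7 and 14.9 FPKM in IP and 10.04 and 9.05 FPKM in input. The groups did not overlap and the gene was 1.39-fold higher in IP (0.43, SE 0.12, limma adjusted p = 0.0167). Chrnb2 lost its call without IP replicate 2 (0.27, limma adjusted p = 0.0531), input replicate 1 (0.50, limma adjusted p = 0.0705) or input replicate 2 (0.36, limma adjusted p = 0.138), with equal sums (0.12, limma adjusted p = 0.409) and without the filter (limma adjusted p = 0.0509). It overlaps exons of Adar on the opposite strand, which was at 63.7 and 60.0 FPKM in IP and 41.0 and 43.8 FPKM in input. Their reads in the shared stretch cannot be told apart, and its length was not measured.

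Its partner Chrna4 was at 4.92 and 4.74 FPKM in IP and 4.33 and 4.59 FPKM in input. Both IP values were above both inputs by a small margin and the change did not pass (0.09, 95% CI -0.09 to 0.28, limma adjusted p = 0.311), although it did after quantile normalization (0.34, limma adjusted p = 0.0106) and was -0.21 with equal sums. Chrna7, which forms the calcium-permeable homomeric receptor, was at 3.22 and 3.84 FPKM in IP and 4.75 and 4.37 FPKM in input and was lower (-0.30, limma adjusted p = 0.034). That call was lost without IP replicate 1 (-0.20, limma adjusted p = 0.144), input replicate 1 (-0.25, limma adjusted p = 0.177) or input replicate 2 (-0.35, limma adjusted p = 0.0904), after quantile normalization (-0.02) and without the filter (limma adjusted p = 0.0764). The Chrnb2 to Chrna7 ratio, chosen after the values were seen, was 3.63 and 3.87 in IP and 2.11 and 2.07 in input. Chrna3, Chrna5 and Chrnb4, subunits typical of the medial habenula, stayed below 0.5 FPKM in every library. Of the 5 markers of that nucleus listed, 3 were tested, of which 1 was higher in IP, 1 was lower and 1 did not pass. Their summed level was 28.0 and 26.02 FPKM in IP and 23.8 and 30.4 FPKM in input, and Pou4f1 was at 0 in both IP libraries.

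Summed over all members, histamine receptors were the most abundant family in IP replicate 1, serotonin receptors in IP replicate 2 and muscarinic receptors in both input libraries. The serotonin sums leave out Htr3a, so this order holds for the genes chosen here. Muscarinic receptors summed to 29.5 and 26.7 FPKM in IP and 38.1 and 41.4 FPKM in input, a ratio of 0.708. Histamine receptors summed to 50.9 and 42.1 FPKM in IP and 37.0 and 36.0 FPKM in input, a ratio of 1.27. These 2 families had the ratios farthest from 1, and in both the groups were apart. Serotonin receptors summed to 38.5 and 44.9 FPKM in IP and 35.3 and 35.9 FPKM in input (ratio 1.17), and nicotinic subunits to 21.3 and 25.2 FPKM in IP and 20.8 and 19.9 FPKM in input (ratio 1.14). Dopamine receptors, at 31.9 and 24.3 FPKM in IP and 31.3 and 22.1 FPKM in input, and noradrenaline receptors, at 24.9 and 19.9 FPKM in IP and 24.0 and 24.9 FPKM in input, overlapped. Dopamine sums were lower in replicate 2 of both IP and input. With equal library sums the ratios were lower throughout, from 0.559 for muscarinic to 1.01 for histamine receptors.

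**Figure D4:**
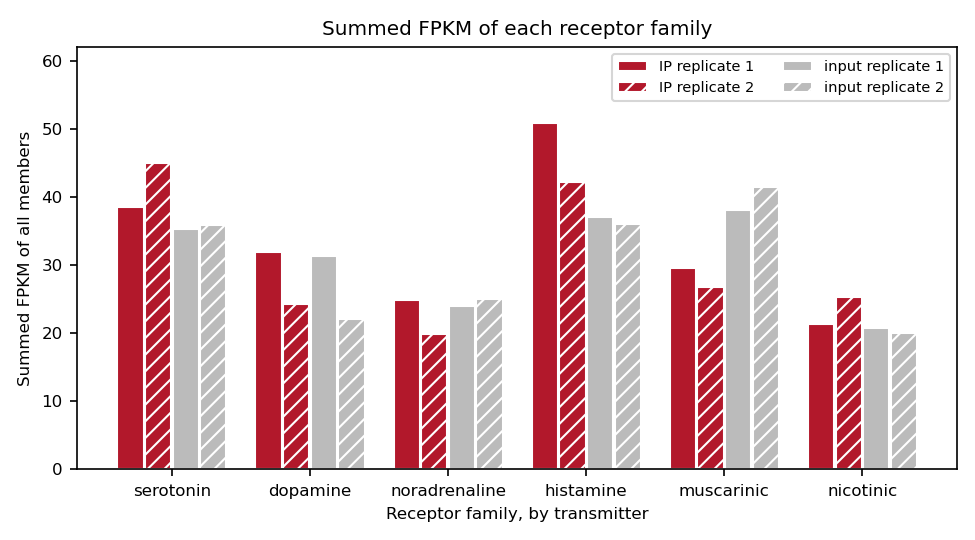
Summed FPKM of all members of each receptor family in each library (IP red, input grey, hatched bars replicate 2). The serotonin bars leave out Htr3a. IP bars are taller than both input bars for serotonin, histamine and nicotinic receptors, shorter for muscarinic receptors, and overlap for dopamine and noradrenaline receptors.

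Grouped by signalling, calls were not confined to a single pathway. Across all genes 37.0% were called higher and 33.9% lower. Of 10 Gi/o-coupled receptors tested, 4 were higher and 4 lower in IP. The sums of the Gi/o-coupled receptors were 103 and 86.8 FPKM in IP and 87.3 and 80.9 FPKM in input. Of 5 Gs-coupled receptors, Htr7 was higher, Drd1a and Htr6 were lower and 2 did not pass, with sums of 21.0 and 21.5 FPKM in IP and 25.0 and 23.8 FPKM in input. Of 8 Gq-coupled receptors, Htr2a was higher, Chrm1 was lower and 6 did not pass. Their sums were 51.7 and 49.6 FPKM in IP and 53.3 and 55.5 FPKM in input.

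The other 26 receptor genes stayed below the filter, at most 0.916 FPKM in any library, and 18 of them stayed below 0.5 FPKM in all 4. Chrnd, Chrng and Hrh4 were listed at 0 throughout. Htr5b was at 0.136 and 0.218 FPKM in IP and 0.826 and 0.424 FPKM in input. Htr4, a Gs-coupled receptor, was at 0.338 and 0.307 FPKM in IP and 0.728 and 0.813 FPKM in input. In both genes the IP values were below both inputs. Both reached the 0.5 FPKM needed to be named here through input libraries alone, so the opposite order was not open to them.

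Drd5, the second Gs-coupled dopamine receptor, was at 0.502 and 0.452 FPKM in IP and 0.750 and 0.758 FPKM in input. Adrb3 was at 0.519 and 0.396 FPKM in IP and 0.608 and 0.916 FPKM in input, and Chrnb1, a muscle subunit, at 0.315 and 0.252 FPKM in IP and 0.382 and 0.622 FPKM in input. These too were lower in both IP libraries than in both inputs. Chrnb1 likewise reached 0.5 FPKM through an input library alone. Among all genes past the filter, 41.4% had both IP values below both inputs, and the share below the filter was not measured. Htr1f, at 0.513 and 0.573 FPKM in IP and 0.765 and 0.544 FPKM in input, and Chrm5, at 0.397 and 0.668 FPKM in IP and 0.482 and 0.466 FPKM in input, overlapped. A fit without the filter tested 49 receptor genes and called 4 higher and 12 lower, with 53.6% of all genes called, 24.7% higher and 28.9% lower. It ended 6 of the 15 calls made with the filter, those of Htr1b, Htr1d, Htr2a, Htr5a, Chrna7 and Chrnb2. In it Htr4 (-0.42, limma adjusted p = 0.004), Htr5b (limma adjusted p = 0.048) and Drd5 (-0.25, limma adjusted p = 0.018) were lower. Adra2b (-0.22, limma adjusted p = 0.0186) and Chrna10 (-0.16, limma adjusted p = 0.0367) were lower too. Chrna2, at 0.404 and 0.485 FPKM in IP and 0.237 and 0.202 FPKM in input, was higher (0.24, limma adjusted p = 0.0166). Adrb3 (limma adjusted p = 0.103) and Chrnb1 (limma adjusted p = 0.112) did not pass.

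Genes that make and clear these transmitters included larger single changes than any receptor gene, up to 2.20. Of 25 listed, 10 were tested, of which 5 were higher in IP, 3 were lower and 2 did not pass, with a median of 0.10; of all genes 70.9% were called. Th, the rate-limiting enzyme of catecholamine synthesis, was at 13.2 and 9.57 FPKM in IP and 1.74 and 1.59 FPKM in input (6.85-fold higher, limma adjusted p = 6e-05). Ache, which breaks down acetylcholine, was at 38.6 and 43.0 FPKM in IP and 16.6 and 16.2 FPKM in input (2.49-fold, limma adjusted p = 3.73e-05). Hnmt, which methylates histamine, was at 17.6 and 17.9 FPKM in IP and 11.7 and 10.5 FPKM in input (1.60-fold, limma adjusted p = 0.000415). All 3 had groups far apart.

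The lower ones included Maob, the monoamine oxidase of astrocytes and serotonin neurons, at 1.98 and 1.71 FPKM in IP and 7.73 and 6.33 FPKM in input (3.82-fold lower, limma adjusted p = 9.18e-05). The summed astrocyte markers, 9 of 10 of them lower, were at 142 and 187 FPKM in IP and 509 and 561 FPKM in input, with Slc7a10 at 0 in both IP libraries; their part in the Maob values was not tested. Chat, which makes acetylcholine, was at 0.109 and 0.357 FPKM in IP and 1.76 and 1.75 FPKM in input (7.54-fold lower, limma adjusted p = 0.000321). Chat passed the filter through the input libraries alone, so only a lower call was open to it. Slc29a4, a low-affinity monoamine transporter, was at 3.26 and 3.92 FPKM in IP and 5.67 and 4.78 FPKM in input (-0.44, limma adjusted p = 0.0127). The last call was lost without IP replicate 1 (-0.34, limma adjusted p = 0.0544), without input replicate 1 (-0.34, limma adjusted p = 0.101) and after quantile normalization (-0.19).

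Proteins that assemble, gate or anchor nicotinic receptors were listed separately, and 13 of 14 were present. Of 10 tested, 6 were higher in IP, 3 were lower and 1 did not pass, with a median of 0.30, beside 37.0% of all genes higher and 33.9% lower. The Ly6 family proteins that bind nicotinic receptors went both ways. Lypd6 was at 18.9 and 20.7 FPKM in IP and 5.04 and 5.46 FPKM in input (3.77-fold, limma adjusted p = 2.53e-05). Lypd6b was at 13.0 and 10.9 FPKM in IP and 4.35 and 3.75 FPKM in input (2.95-fold, limma adjusted p = 0.000113), and Lynx1, a brake on nicotinic receptors, at 127 and 110.3 FPKM in IP and 55.8 and 53.6 FPKM in input (2.17-fold, limma adjusted p = 7.05e-05). Each of these was higher in both IP libraries.

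In the other direction, Lypd1, which also restrains nicotinic receptors, was at 34.4 and 41.0 FPKM in IP and 84.7 FPKM in both inputs (2.25-fold lower, limma adjusted p = 8.38e-05). Ly6g6e was at 0.264 and 0.211 FPKM in IP and 1.25 and 1.21 FPKM in input (5.18-fold lower, limma adjusted p = 0.000404), and Agrn, the organizer of the muscle synapse, at 5.82 and 6.47 FPKM in IP and 13.0 and 13.2 FPKM in input (2.13-fold lower, limma adjusted p = 9.83e-05). Ly6g6e passed the filter through the input libraries alone, so only a lower call was open to it. After quantile normalization it stood at -0.24 and did not pass (limma adjusted p = 0.084). The 3 nicotinic subunits tested thus spanned -0.30 to 0.43, while these accessory genes spanned -1.15 to 1.73.

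Downstream of the receptors, 55 of 59 listed genes of G protein signalling were tested, of which 24 were higher in IP, 19 were lower and 12 did not pass, with a median of 0.08, beside 37.0% of all genes higher and 33.9% lower. The largest rises were in Rgs10, an inhibitor of Gi/o signalling, at 61.1 and 72.7 FPKM in IP and 27.9 and 29.3 FPKM in input (2.34-fold, limma adjusted p = 8.56e-05), and in Gng3, a neuronal gamma subunit, at 373 and 386 FPKM in IP and 192 and 187 FPKM in input (2.00-fold, limma adjusted p = 2.68e-05). Grk6, a receptor kinase that acts on dopamine receptors, was at 41.1 FPKM in both IP libraries and 24.0 and 23.5 FPKM in input (1.73-fold, limma adjusted p = 6.07e-05). All 3 were clear of their inputs.

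The largest falls were in Rgs14, an RGS scaffold protein, at 18.8 and 15.7 FPKM in IP and 43.7 and 45.1 FPKM in input (2.57-fold lower, limma adjusted p = 6.38e-05), and in Plcb3, a phospholipase of the Gq pathway, at 0.371 and 0.470 FPKM in IP and 2.55 and 2.39 FPKM in input (5.87-fold lower, limma adjusted p = 8.56e-05). Ppp1r1b, given above among the striatal-type markers, was the third, 1.99-fold lower (limma adjusted p = 0.000811). Plcb3 passed the filter through the input libraries alone, so only a lower call was open to it. With equal sums the G protein counts were 9 higher and 31 lower, while 17.9% of all genes were higher and 53.8% lower.

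**Figure D5:**
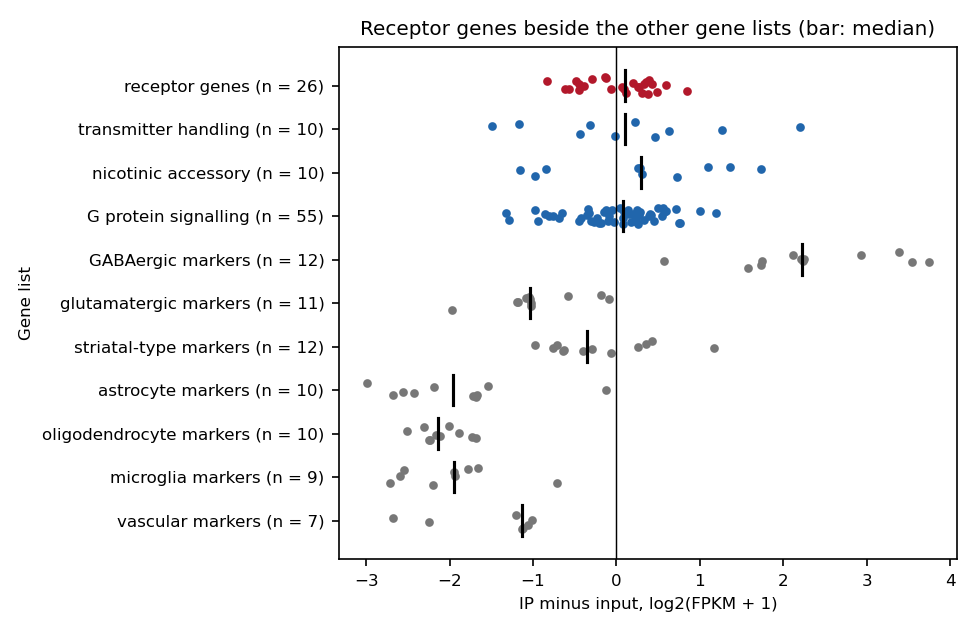
Change of every tested gene (IP minus input, log2(FPKM + 1)) in the receptor set, the 3 pathway lists and 7 cell type marker lists, with a bar at each median. Receptor genes lie between -0.83 and 0.84, inside the spread of each pathway list, while GABAergic markers lie to the right of 0 and glial and vascular markers to the left.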

How the data were processed

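RNA-seq libraries (TruSeq kit, 100 bp single-end reads, equal RNA input) were aligned with TopHat to mm10 with the iGenomes UCSC annotation and quantified with Cufflinks, per the labels' protocols and the submitters' processing notes; versions are not given in the sources used here. The authors deposited FPKM per gene with 95% confidence limits; read counts are not analysed here, so no count test was run. Entries with a failed status in any library (8) and small RNA names (1272) were left out, and the entry with the highest mean was kept for the 241 symbols listed several times.

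Receptor genes and all lists were chosen with earlier results of these data known. All receptor genes passing the filter are named with values; those below it are named where a library reached 0.5 FPKM, except 1 that is not reported here; each pathway list is named by its 3 largest rises and 3 largest falls past the threshold with groups apart.

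The 2 IP and 2 input libraries were compared with limma 3.58.1 in R 4.3.3 (lmFit, eBayes with trend) on log2(FPKM + 1), in genes with at least 1 FPKM in at least 2 libraries, adjusted by Benjamini-Hochberg over 12418 genes at 0.05; the procedure was tested on simulated data. Tables were handled in Python 3.11.15 with pandas 2.3.3 and numpy 2.4.6. IP and input of the same number came from the same pooled mice, per the labels; their deviations from the group means correlated at 0.161. Log2 values correlated at 0.995 between the IP libraries, 0.994 between the input libraries and 0.937 to 0.939 between IP and input. Gene overlaps were read from GENCODE M21, and start sites and promoter windows from RefSeq (GRCm38.p6). Alternatives were the pseudocount, filter, scaling, replicate block, trend, summed entries and leaving out each library.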

Additional observations from a re-analysis of the deposited data

How the results depend on the processing

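Of the 7 receptor genes higher in IP, the count was 4 without a filter, 4 with a filter at 5 FPKM, 1 with equal library sums, 12 after quantile normalization and 2 to 7 with a library left out, 2 being without input replicate 2. The count of 8 lower was 4 with the filter at 5 FPKM, 4 after quantile normalization, 10 with equal sums, 12 without a filter and 4 to 7 with a library left out, 5 without input replicate 1 and 4 without input replicate 2. Only 12 receptor genes passed the higher filter, which by construction lowers its counts. Of all genes past it, 46.7% were higher and 27.0% lower. Without a filter 24.7% of all genes were higher and 28.9% lower. Fits with a library left out called a smaller share of all genes too. With the replicate as a block the counts were 10 and 8, and Htr1a, Drd2 and Adra1b alone changed call. Of all genes, 17.9% were higher and 53.8% lower with equal sums, against 35.3% and 30.2% after quantile normalization. A smaller pseudocount of 0.1, eBayes without trend and summed entries changed no call of the 26 receptor genes, and a pseudocount of 5 changed that of Htr1a. An alternative without filter and with a pseudocount of 0.1 was chosen after seeing the data and ended 6 calls. Transmitter handling genes, 5 of them higher and 3 lower, gave 3 higher with equal sums and 3 after quantile normalization, and 9 lower without a filter, 1 with the filter at 5 FPKM and 5 with equal sums. With a library left out they gave 4 to 5 higher and 2 to 4 lower. G protein signalling genes gave 9 higher and 31 lower with equal sums, 8 and 30 after quantile normalization, and 18 to 20 higher and 12 to 18 lower with a library left out, 12 without IP replicate 2. Family sums, IP over input with equal sums, were 0.927 for serotonin, 0.831 for dopamine, 0.722 for noradrenaline, 1.01 for histamine, 0.559 for muscarinic and 0.904 for nicotinic receptors. Among receptor genes not past the threshold, the sign turned with equal sums for Htr2c (-0.21), Adra1d (-0.24), Hrh2 (-0.018) and Chrna4 (-0.21), and after quantile normalization for Adrb1 (0.10), Hrh1 (0.31) and Chrm3 (0.075), as it did for Htr6 (0.072), which had been called. With a library left out, Htr2c ran from -0.089 (without IP replicate 2) to 0.32, Adra1d from -0.12 (without IP replicate 1) to 0.25, and Hrh1 from -0.20 to 0.065 (without IP replicate 2). The cause of these differences was not tested. Leaving out a library leaves a group with 1 sample, which is then assumed to vary like the other group. The main limits are 2 pools per group, an unknown depth, an unstated strand, and many receptor genes near 1 FPKM.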
